A study of Mus musculus with 19 samples.

Results

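Axon guidance genes other than the class 3 semaphorins were followed in the cerebral cortex of fetal mice whose dams were made hypothyroid, hyperthyroid or hypothyroid with hormone replacement. Members were taken by gene symbol: all probe sets for Eph receptors (Epha, Ephb), their ephrin ligands (Efna, Efnb), semaphorins of classes 4 to 7, plexins, Robo1 to Robo3, Slit1 to Slit3, netrins Ntn1 and Ntn4, and the netrin receptors Dcc, Neo1 and Unc5a to Unc5d. This gave 125 probe sets of 58 genes, out of 45037 probe sets that are not controls and 23341 gene symbols in the deposited table. A probe set is a group of short probes against 1 transcript region, and a gene can have several. The authors' deposited table called 110 of the 125 present, and 55 of the 58 genes had at least 1 probe set called present. Epha1, Epha6 and Robo3 had none. The deposited symbols of 6 probe sets named a second gene: 3 of Plxnc1, both of Ntn1 and the only probe set of Efna3, so values given for Ntn1 and Efna3 are uncertain as to the gene.

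Pregnant wild type C57BL/6 mice drank water with 2% sucrose from gestational day 13, were injected once 12 hours before being killed on day 16, and gave 19 arrays, each of RNA from part of the cortex of 1 fetus recorded as female. Dams of the control group (5 arrays) drank sucrose water and were injected with saline. The hypo group (5 arrays) had 1% perchlorate and 0.025% methimazole, which block iodide uptake and hormone synthesis in the thyroid, in its water and the saline injection. The hypo+ group (5 arrays) had the same drugs and an injection of 25 µg thyroxine (T4) plus 2.5 µg triiodothyronine (T3) for each 100 g of body weight, meant as replacement at a physiological level. Dams of the hyper group (4 arrays) drank sucrose water without the drugs and were injected with 100 µg T4 plus 10 µg T3 for each 100 g. Some labels of the hypo groups name propylthiouracil instead of perchlorate and methimazole, and the labels do not tie fetuses to dams. The p-values therefore cover only the spread among the fetuses sampled.

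The median signal of an array was 73.1 to 106 units, no 2 arrays were copies of each other (correlations 0.976 to 0.993), and precision is limited by how few arrays there are. Against their label, 2 arrays carried Y-linked signal: hypo+ replicate 1 and hyper replicate 4. They read 68.8 and 97.2 for Xist, against at least 3145 on the other 17 arrays. Each member probe set that passed the threshold is therefore given with and without them. Check genes, cell type markers and other guidance genes are given only with them. All 12 neocortical markers examined, among them Emx1 and Tbr1, were called present in the authors' deposited table. Klf9, a direct target of thyroid hormone receptors, read 130 ± 24 (SD, n = 5) in control, 148 ± 7.48 in hypo, 175 ± 24.1 in hypo+ and 556 ± 143 in hyper (n = 4). Of 7 genes chosen as a check of hormone response, 3 rose in hyper against control (median log2 change of the 7 0.27), and none passed in limma in hypo against control (median 0.10), in hypo+ against control (median 0.063) or in hypo+ against hypo (median −0.027). On hyper replicate 1 the 8 markers of meninges and fibroblasts summed to 18176 signal units, against 3801 to 10055 on the other arrays.

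Growing axons steer by membrane-bound and secreted cues. Ephrins are ligands held in the membrane of neighbouring cells, the A class by a lipid anchor and the B class by a transmembrane segment, and they bind Eph receptors, which are receptor tyrosine kinases; contact often repels the growth cone. Semaphorins signal through plexins. Those of classes 4 to 7 are mostly bound to the membrane, in contrast to the secreted class 3, which needs neuropilins as co-receptors. Slits are secreted repellents that act on Robo receptors, and netrins attract axons through Dcc or repel them through Unc5 receptors. In the fetal cortex these systems set the paths of corticofugal, callosal and thalamocortical axons and also act on cell migration.

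EphA receptors made up 24 of the 125 probe sets. They held 4 of the 8 members that differed between hypo+ and control at a limma adjusted p under 0.05. These were 2 of 4 probe sets of Epha3, 1 of 5 of Epha4 and 1 of 4 of Epha5, all lower. The 250 bases before the annotated starts of these genes are shown for that reason (RefSeq, build GRCm38.p6). All 3 genes lie on the minus strand, and the bases are written 5′ to 3′ toward the start. Capitals mark GGGCGG, the core of the GC box bound by Sp factors. AGGTCA, a binding element of thyroid hormone receptors, was searched too, each motif on both strands, and is absent from these 3 windows.
Epha3 chr16:63864176-63864425: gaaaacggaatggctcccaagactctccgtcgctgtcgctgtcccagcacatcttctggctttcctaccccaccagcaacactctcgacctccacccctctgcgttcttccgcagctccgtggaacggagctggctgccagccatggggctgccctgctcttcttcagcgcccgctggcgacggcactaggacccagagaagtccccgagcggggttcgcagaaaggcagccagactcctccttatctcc
Epha4 chr1:77515089-77515338: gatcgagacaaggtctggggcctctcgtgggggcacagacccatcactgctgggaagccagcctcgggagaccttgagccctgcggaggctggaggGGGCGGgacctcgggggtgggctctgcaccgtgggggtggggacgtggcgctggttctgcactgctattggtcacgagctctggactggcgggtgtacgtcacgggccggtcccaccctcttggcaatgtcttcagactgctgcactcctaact
Epha5 chr5:84417383-84417632: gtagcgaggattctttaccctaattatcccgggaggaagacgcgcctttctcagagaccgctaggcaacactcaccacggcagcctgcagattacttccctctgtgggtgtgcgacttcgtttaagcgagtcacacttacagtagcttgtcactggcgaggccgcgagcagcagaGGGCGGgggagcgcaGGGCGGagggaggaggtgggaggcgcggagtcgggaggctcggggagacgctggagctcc

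The Epha4 window holds 1 GC box, the Epha5 window 2 and the Epha3 window none, and their GC contents are 66%, 62.4% and 62.8%. A promoter was matched for 50 of the 58 genes, 66 promoters in all. GGGCGG was found in 72.7% of these (48 of 66) against 32.7% of all 32851 promoters in the table, and AGGTCA in 12.1% (8 of 66) against 14%. The direct repeat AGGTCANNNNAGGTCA, the arrangement best known for thyroid hormone receptors, was in none of the 66 and in 5 of all promoters. These are matches of letters in a short window and say nothing of binding.

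The question put to the members was how drug treatment, replacement and excess hormone each moved their signal. Signals were tested as log2(signal + 32) with limma over all 45037 probe sets at once, with Benjamini-Hochberg adjustment and a threshold of adjusted p under 0.05, and log2 changes are on that scale, which understates the changes of dim probe sets. In hypo+ against control 8 of the 125 probe sets passed, 7 lower and 1 higher, where 3.11% of all probe sets passed (1.21% higher and 1.9% lower). In hypo+ against hypo 6 passed, all lower, where 3.16% of all passed (2.03% higher and 1.13% lower). In hypo+ against hyper 2 passed, both lower, where 0.0377% of all passed (0.0333% lower). None passed in hypo against control (0% of all), hyper against control (0.175% of all) or the difference of both hormone responses (0.0133% of all). At an unadjusted p under 0.05 limma counted 12 members in hypo against control (8.19% of all), 19 in hyper against control (10.5% of all) and 22 in the difference (6.49% of all), and the authors' deposited table called no member in either of the first 2. Leaving out single arrays gave 2 to 9, 3 to 11 and 1 to 2 calls in the comparisons of hypo+ with control, hypo and hyper. With array medians centred, the split over all probe sets moved from 544 higher and 856 lower to 391 and 1605 in hypo+ against control and from 913 and 508 to 557 and 730 in hypo+ against hypo, where quantile normalization gave 1166 and 1095. Every hypo+ array lay above every control array for 3 members and below for 6 (1.53% and 2.54% of all probe sets), above every hypo array for 2 and below for 5 (3.33% and 1.77%), and above every hyper array for 3 and below for 11 (1.04% and 3.54%). The EphA receptors, 24 of the 125 probe sets, held 4 of the 8 calls in hypo+ against control, 4 of the 6 in hypo+ against hypo and both in hypo+ against hyper. Epha3 alone gave 2 of these 4 in each of the first 2 comparisons and both in the last.

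**Figure D1:**
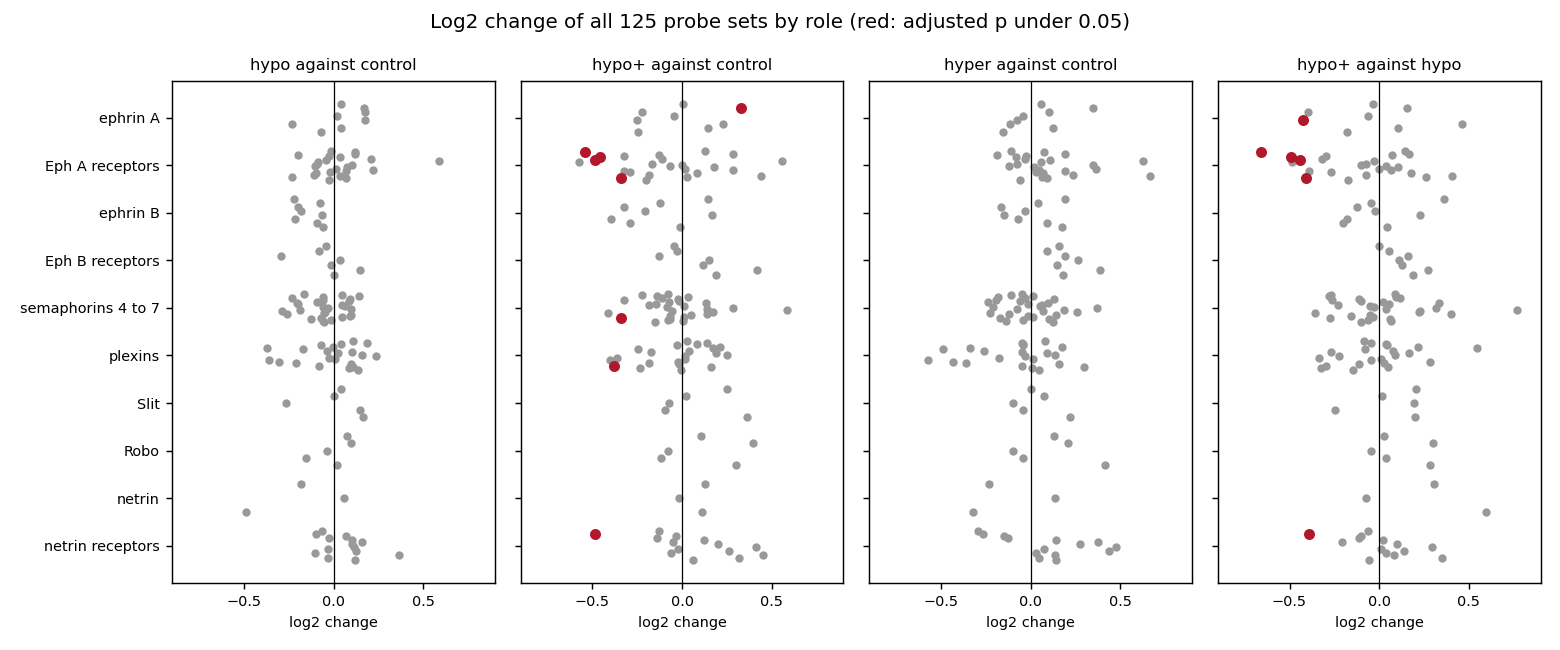
Log2 change (log2 of signal + 32) of each of the 125 probe sets in 4 comparisons, grouped by role, with 1 point per probe set and red points for adjusted p under 0.05 in limma. In most roles the points lie on both sides of 0. The red points are 8 in hypo+ against control and 6 in hypo+ against hypo, 4 of them in each among the 24 EphA receptor probe sets.

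Epha3 encodes a receptor for A-class ephrins. Its brightest probe set, 1455426_at, read 2709, 2582, 2499, 2775 and 2409 on the control arrays, 2769, 2703, 2982, 2643 and 2513 in hypo, 2041, 1893, 2087, 2158 and 2012 in hypo+, and 2602, 2806, 2748 and 2905 in hyper. All 5 hypo+ arrays lay below all 14 others, and the other groups overlapped. The mean was 2038 ± 98 (SD, n = 5) in hypo+ against 2595 ± 149 in control (n = 5), 2722 ± 174 in hypo (n = 5) and 2765 ± 126 in hyper (n = 4). It fell by 0.34 ± 0.06 (SE) on the log2 scale against control (limma adjusted p = 0.00389), by 0.41 ± 0.06 against hypo (0.00122) and by 0.43 ± 0.06 against hyper (0.00637). Without both arrays with Y-linked signal the changes were −0.34 (adjusted p = 0.0094), −0.41 (0.00437) and −0.41 (0.0842), so the last no longer passed.

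Probe set 1425574_at of Epha3 moved the same way: 1051, 925, 1022, 1178 and 1037 in control, 918, 894, 1183, 883 and 1205 in hypo, 731, 806, 691, 760.1 and 679.6 in hypo+, and 1044, 1167, 1037 and 1263 in hyper. Again every hypo+ array read lower than every other array. The changes were −0.49 ± 0.09 (SE) against control (limma adjusted p = 0.0104), −0.44 ± 0.09 against hypo (0.0168) and −0.60 ± 0.10 against hyper (0.0401). The first 2 kept adjusted p values of 0.0177 and 0.0305 without the arrays with Y-linked signal, while the change against hyper was −0.54 (0.168). The call against hyper was also lost when control replicate 3 or 5, any 1 of the hypo+ arrays or any 1 of the hyper arrays was left out, with adjusted p values of 0.0599 to 0.156.

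The 2 remaining Epha3 probe sets split. Signal of 1426057_a_at was 523, 269.8, 401, 448 and 572 in control, 391, 416, 502, 288 and 445 in hypo, 345, 265, 285, 308 and 204 in hypo+, and 449, 570.0, 350.4 and 452 in hyper, a change of −0.58 in hypo+ against control that did not pass. Probe set 1425575_at was lowest in control, with 922, 430.4, 485, 967 and 914 in control, 1137, 965, 1149, 844 and 1329 in hypo, 1164, 721, 1098, 1618 and 852 in hypo+, and 1221, 1123, 983 and 1099 in hyper. All 4 hyper arrays of 1425575_at lay above the 5 control arrays, but its changes of 0.59 in hypo (adjusted p = 0.490), 0.56 in hypo+ (0.209) and 0.63 in hyper (0.348) did not pass in limma, and 2 control arrays were far below the other 3. Epha3 was the only member gene with probe sets of opposite sign at unadjusted p under 0.05 in hypo+ against control, and averaging its 4 probe sets left a change of −0.21 (adjusted p = 0.432). The deposited files do not say which part of the transcript each probe set covers.

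**Figure D2:**
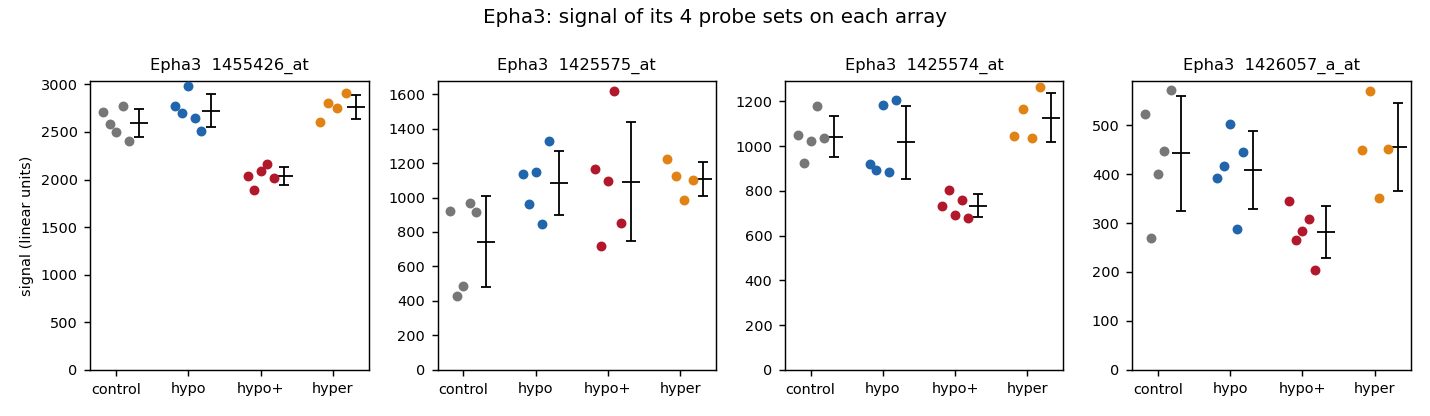
Signal (linear units) of the 4 Epha3 probe sets on each of the 19 arrays by group, with 1 point per array and bars for the mean and SD. In 1455426_at and 1425574_at all 5 hypo+ arrays lie below every other array, in 1426057_a_at the hypo+ mean is lowest with overlap, and 1425575_at is lowest in control.

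Epha5 and Epha4 each had 1 probe set that fell with hypo+. Epha5, a receptor known for topographic maps in the brain, read 471, 286, 369.9, 498 and 516 in control at probe set 1420557_at, 361, 471, 534, 418 and 530.1 in hypo, 288, 269, 279, 295 and 260.2 in hypo+, and 468, 432, 395 and 486 in hyper. The hypo+ arrays lay below all hypo and hyper arrays and overlapped control through 1 control array, replicate 2. The change was −0.66 ± 0.13 (SE) against hypo (limma adjusted p = 0.0119; 0.0238 without the arrays with Y-linked signal), and no single array left out ended this call. Against control it was −0.54 ± 0.13 (0.0313; 0.0493 without the same 2 arrays), and this call was lost without control replicate 1, 4 or 5 or without hypo+ replicate 2, 3, 4 or 5, with adjusted p values of 0.0525 to 0.0902. Against hyper it was −0.62 (0.184).

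The other Epha5 probe sets gave changes of −0.32 (1437920_at), −0.18 (1444690_at) and 0.01 (1435286_at) in hypo+ against control, none of which passed. Probe set 1435286_at had a different order of groups: 1751, 1771, 1747, 1952 and 1704 in control, 1489, 1877, 2104, 1868 and 1714 in hypo, 1852, 1656, 1840.3, 2122 and 1581 in hypo+, and 2324, 2418, 2193 and 2276 in hyper. Every hyper array exceeded all the others here, with a change of 0.36 ± 0.09 against control that did not pass (limma adjusted p = 0.120).

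Epha4 is a receptor that binds ephrins of both classes and is known for its part in corticospinal and thalamocortical wiring. Its probe set 1421929_at read 777, 586, 648, 653 and 713 in control, 669, 603, 879.8, 544 and 803 in hypo, 576, 441, 393, 497 and 514 in hypo+, and 699, 554, 675 and 613 in hyper. The hypo+ arrays were below all control arrays and overlapped the hypo and hyper groups at their upper end. The change was −0.46 ± 0.12 (SE) against control (limma adjusted p = 0.0471; 0.0379 without the arrays with Y-linked signal) and −0.49 ± 0.12 against hypo (0.0337; 0.0327 without them). The call against control passed in 5 of the 19 fits that left out 1 array (all but those without control replicate 2, hypo replicate 3, 4 or 5 or hypo+ replicate 1 gave 0.0521 to 0.128), and the call against hypo was lost without hypo replicate 1, 3 or 5 or hypo+ replicate 2, 3, 4 or 5 (0.054 to 0.0845). The brightest Epha4 probe set, 1421928_at, had a log2 difference of −0.32 against control and the other 3 had −0.29, −0.20 and −0.0016, none past the threshold.

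Over the 24 EphA receptor probe sets, 9 had a positive change in hypo+ against control and the median was −0.12, against −0.0081 over all probe sets. Their median was −0.073 in hypo+ against hypo (all probe sets 0.00087) and −0.18 in hypo+ against hyper (all probe sets −0.023). All probe sets called present had medians of −0.012 against control, 0.014 against hypo and −0.063 against hyper. With the brightest probe set of each of the 9 EphA genes, the medians were 0.014 against control, 0.067 against hypo and 0.056 against hyper. Positive changes numbered 5, 7 and 5 of the 9, so the lower medians do not hold per gene. By limma, calls came from 3 of the 9 EphA genes, and Epha1, Epha2, Epha6, Epha7, Epha8 and Epha10 had none in any comparison. The authors' deposited table called Epha1 1432400_at higher in hypo+ against control (fold 1.38, adjusted p 0.0426), a probe set it lists as absent, with a limma change of 0.18 that did not pass (0.109). Counted by the brightest probe set of each gene, only Epha3 held a call among the EphA receptors, since the probe sets of Epha4 and Epha5 that passed are not the brightest. EphB receptors, which mainly bind B-class ephrins, held no call in limma. Of their 7 probe sets, all called present, 4 were positive in hypo+ against control and 7 in hyper against control. In hyper against control their median was 0.18, against 0.013 over all probe sets and 0.046 over all called present. The authors' deposited table called Ephb2 1454022_at higher in hypo+ against control (fold 1.38, adjusted p 0.0482), where limma gave 0.42 ± 0.12 (SE) and did not call it (0.0665). Its signal was 275 ± 54.3 in control, 306 ± 36.9 in hypo, 375 ± 41.4 in hypo+ and 367 ± 55 in hyper. Ephb1 read 785 ± 73.9 in control and 900 ± 96.1 in hypo+, a change of 0.19 (limma adjusted p = 0.197).

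In the same arrays the cell type markers of the sample moved too, and their part in these changes was not tested. Of the 12 neocortical markers 1 had a positive change in hypo+ against control (median −0.25), 1 against hypo (median −0.34) and 0 against hyper (median −0.33), and Fezf2, a gene of deep layer neurons, fell against hypo. Their summed signal was 21019 to 26735 in control, 17513 to 31275 in hypo, 18634 to 25647 in hypo+ and 23033 to 29138 in hyper. Of 17 markers of ventral forebrain and interneurons, tissue that borders the cortex or migrates into it, 13 were positive in hypo+ against control (median 0.14), 16 against hypo (median 0.32) and 12 against hyper (median 0.18); Dlx2 rose in both and Ebf1 against hypo. Their sums were 10161 to 14963 in control, 7559 to 12988 in hypo, 12352 to 16588 in hypo+ and 10687 to 13137 in hyper. In bulk tissue, fewer cells of a type and less RNA per cell cannot be told apart.

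Of 10 thalamic and hypothalamic markers, 8 were positive in hypo+ against control (median 0.47) and all 10 against hyper (median 0.54), and none passed; they summed to 676 to 3562 in control, 729 to 2610 in hypo, 709.6 to 3997 in hypo+ and 791 to 2291 in hyper. Choroid plexus markers, 7 of 8 positive in each treated group against control, summed to 5832 to 19058 in control and 15691 to 18268 in hypo+, and no choroid plexus marker passed. Of the 6 oligodendrocyte lineage markers 5 were positive in hypo+ against hypo and Cnp rose, with sums of 1576 to 1961 in hypo and 1942 to 2286 in hypo+. No marker of endothelium and pericytes, meninges, microglia, erythroid cells or cortical hem passed in any comparison, and their medians in hypo+ against control were −0.053, 0.076, −0.056, −0.11 and 0.22.

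**Figure D3:**
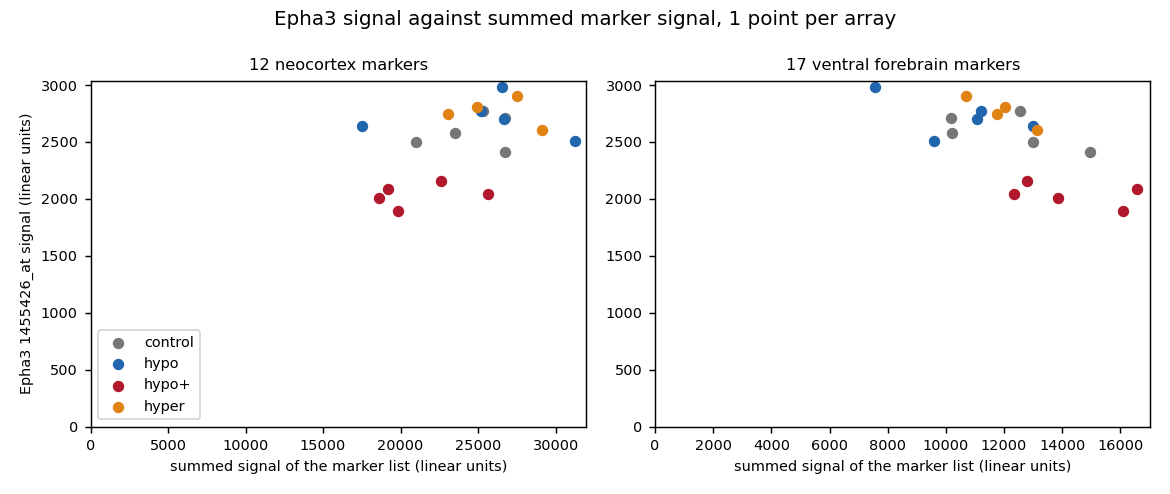
Signal of Epha3 1455426_at (linear units) against the summed signal of the 12 neocortical markers (left) and the 17 ventral forebrain markers (right), with 1 point per array coloured by group. The 5 hypo+ arrays lie at 1893 to 2158 on the vertical axis, below all others. Their neocortical sums (18634 to 25647) overlap those of each other group and reach below control (from 21019) and hyper (from 23033).

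Among the ligands, Efna2 was the only member that rose. Efna2 encodes ephrin-A2; its probe set 1417521_at read 151, 128, 149, 169.7 and 166 in control, 176, 159, 154, 191 and 199.8 in hypo, 187, 222, 201, 197 and 189.7 in hypo+, and 175, 206, 231 and 201 in hyper. All hypo+ arrays and all hyper arrays lay above all control arrays. It rose by 0.33 ± 0.08 (SE) in hypo+ against control (limma adjusted p = 0.0328; 0.0446 without the arrays with Y-linked signal), and the change of 0.35 ± 0.08 in hyper against control did not pass (0.107). The call was lost without control replicate 1, 2 or 3 or hypo+ replicate 2, 3, 4 or 5 (0.0533 to 0.0864), and with array medians centred the change was 0.23 (0.291). The brighter Efna2 probe set, 1444606_at, had a log2 difference of 0.15, which did not pass.

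Efna3, which encodes ephrin-A3, read 377, 463, 555, 486 and 448 in control, 559, 469, 527, 446 and 649.5 in hypo, 365, 394, 400.0, 374 and 385 in hypo+, and 363, 450.3, 506 and 438 in hyper at its only probe set, 1431170_at. The hypo+ arrays lay in a narrow band below all hypo arrays and overlapped the other groups. It fell by 0.42 ± 0.10 (SE) in hypo+ against hypo (limma adjusted p = 0.0309); without the arrays with Y-linked signal the change was −0.41 and no longer passed (0.0722), and the call was also lost without hypo replicate 1, 3 or 5 or any 1 of the hypo+ arrays (0.0523 to 0.0751). Efna5, the ligand best known for retinal and thalamocortical maps, had a log2 difference of 0.46 ± 0.15 in hypo+ against hypo, which did not pass (0.109), and 0.57 without hypo replicate 4, which did (0.0400). B-class ephrins held no call, with 2 of 8 probe sets positive in hypo+ against control (median −0.17) and 0 of 8 in hypo against control (median −0.14). Efnb2, also an arterial and progenitor ligand, read 3210.4 ± 221 in control, 2834 ± 347 in hypo, 2804 ± 467 in hypo+ and 3139 ± 286 in hyper at 1419639_at, and its 4 probe sets had log2 differences of −0.39 to −0.21 in hypo+ against control, none past the threshold.

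**Figure D4:**
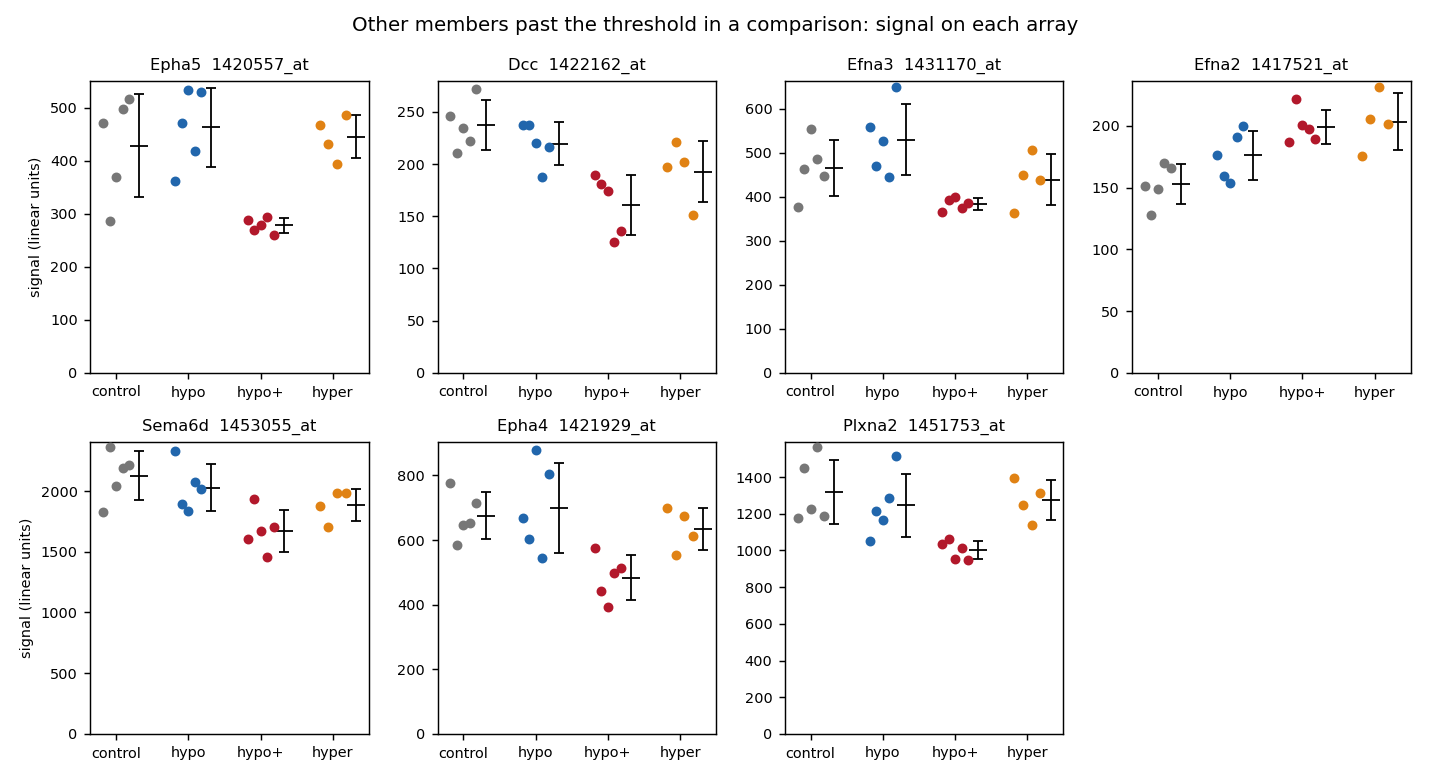
Signal (linear units) on each of the 19 arrays for 7 further probe sets past the threshold in at least 1 comparison, with 1 point per array and bars for the mean and SD. Hypo+ is the lowest group for Epha5, Dcc, Efna3, Sema6d, Epha4 and Plxna2, and hypo+ and hyper lie above control for Efna2.

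Among netrin receptors, Dcc, which mediates attraction to netrin, fell at 1 of its 3 probe sets. Probe set 1422162_at read 246, 211, 234, 222 and 272 in control, 238, 237, 219.7, 187 and 216 in hypo, 189.7, 181, 174, 125 and 136 in hypo+, and 197, 221, 202 and 151 in hyper. The hypo+ arrays were below all control arrays and overlapped hypo at its lowest array. The change was −0.49 ± 0.10 (SE) against control (limma adjusted p = 0.0178; 0.00925 without the arrays with Y-linked signal), lost without control replicate 5 (0.0549) or hypo+ replicate 5 (0.0501). Against hypo it was −0.39 ± 0.10 (0.0495; 0.0242 without the same arrays), a call that only 4 of the 19 fits without 1 array kept: those without control replicate 2, hypo replicate 4, hypo+ replicate 1 or hyper replicate 4. The brighter Dcc probe sets, 1440487_at and 1441572_at, had log2 differences of 0.20 and −0.022 against control, which did not pass.

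No probe set of Neo1, the receptor for netrins and repulsive guidance molecules, or of the repulsive receptors Unc5a to Unc5d passed in limma in any comparison. The authors' deposited table called Neo1 1447694_x_at higher in hypo+ against control (fold 1.62, adjusted p 0.0350). Limma gave 0.45 ± 0.13 (SE) for it (0.063), with 51.5 ± 14.4 in control, 74.7 ± 11.7 in hypo, 81.1 ± 12 in hypo+ and 59.7 ± 16.7 in hyper, and every hypo+ array lay above every control array. Over the 14 netrin receptor probe sets the median change in hypo+ against control was 0.019, with 7 positive. Netrin itself varied widely between arrays. Ntn1 at 1454974_at read 418, 437, 687, 585 and 667 in control, 494, 451, 213, 661 and 250 in hypo, 512, 832, 607, 494 and 579 in hypo+, and 499, 408, 506 and 338 in hyper. The groups overlapped, and its changes of −0.49 in hypo and 0.60 in hypo+ against hypo did not pass.

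Among semaphorins of classes 4 to 7, Sema6d, a transmembrane semaphorin that binds plexin A1, was the only gene with a call in limma. Its brightest probe set, 1453055_at, read 1826, 2360.0, 2041, 2194 and 2218 in control, 2327, 1892, 1833, 2072 and 2015 in hypo, 1604, 1930.4, 1669, 1454 and 1706 in hypo+, and 1874, 1706, 1984 and 1981 in hyper. Of the 5 hypo+ arrays 4 lay below all control arrays, and hypo+ overlapped each other group. It fell by 0.34 ± 0.08 (SE) against control (limma adjusted p = 0.0339), and without the arrays with Y-linked signal the change was −0.33 (0.0645). The call was also lost without control replicate 2, 3 or 5 or hypo+ replicate 1, 3, 4 or 5 (0.0567 to 0.0862), under quantile normalization (0.116) and with a pseudocount of 1 (0.0661). A second Sema6d probe set, 1448060_at, had a log2 difference of −0.41 against control (0.0574), and the dim sets 1446536_at and 1459318_at had 0.17 and 0.0073.

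The other 12 semaphorin genes held no call in limma. Over all 29 semaphorin probe sets 11 were positive in hypo+ against control (median −0.067), 10 in hypo against control (median −0.054) and 13 in hyper against control (median −0.017). Sema4a, a membrane semaphorin also known from immune cells, read 141, 182, 162, 192 and 131 in hypo and 229, 232, 228, 219 and 199 in hypo+ at 1448110_at, with every hypo+ array above every hypo array. Its change of 0.40 ± 0.12 (SE) against hypo did not pass in limma (adjusted p = 0.0825), nor did the 0.77 of its second probe set, 1438934_x_at (0.0877), which the authors' deposited table called; without hyper replicate 4, which enters only through the shared spread, the first passed (0.0392). Sema5a at 1437422_at read 704, 647, 670.2 and 658 in hyper, above all 5 control arrays (511, 597, 378, 644 and 462), a change of 0.37 ± 0.13 that did not pass (0.282). Sema7a, whose receptor is plexin C1, had a log2 difference of −0.28 ± 0.08 in hypo+ against hyper, which did not pass (0.245).

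Of the plexins, the semaphorin receptors, Plxna2 had the only call. Its probe set 1451753_at read 1177, 1448, 1228, 1562 and 1187 in control, 1053, 1217, 1166, 1289 and 1514 in hypo, 1036, 1061, 955, 1015 and 947 in hypo+, and 1394, 1249.7, 1136 and 1314 in hyper. The hypo+ arrays lay below all control and all hyper arrays and overlapped hypo through hypo replicate 1. It fell by 0.38 ± 0.09 (SE) against control (limma adjusted p = 0.0353), and without the arrays with Y-linked signal by 0.39 (0.0543). The call was also lost without control replicate 2, 3 or 4 or hypo+ replicate 2, 3, 4 or 5 (0.0564 to 0.088). The brightest Plxna2 probe set, 1453286_at, read 2641 ± 647 in control and 2896 ± 272 in hypo+, a change of 0.16 in the other direction that did not pass. Of the 4 Plxna2 probe sets 3 were negative and 1 positive in hypo+ against control.

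Plxna4, a co-receptor for class 3 semaphorins, had a log2 difference of −0.37 ± 0.11 in hypo+ against control at 1441371_at, which did not pass (limma adjusted p = 0.0693), with all hypo+ arrays below all control arrays. Plxnc1 at 1423213_at read 949, 1319, 1407, 1216 and 1206 in control, 700.5, 1096, 841, 1499.9 and 706 in hypo, 1249.5, 1321, 1286, 1295 and 1748 in hypo+, and 970.3, 1057, 911 and 869 in hyper. The hypo+ arrays lay above all hyper arrays, and the hypo arrays ran from below all hyper arrays to above all but 1 of the hypo+ arrays. Its change of 0.55 ± 0.17 (SE) in hypo+ against hypo did not pass (0.0832) but did without hypo replicate 4 (0.71, 0.00979), the array with the highest hypo value. Of the 6 Plxnc1 probe sets 4 were positive and 2 negative in that comparison, and only 1 had a limma unadjusted p under 0.05. In hyper against control its 5 probe sets called present had log2 differences of −0.57 to −0.34, none past the threshold. Over the 22 plexin probe sets 11 were positive in hypo+ against control (median 0.0025).

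**Figure D5:**
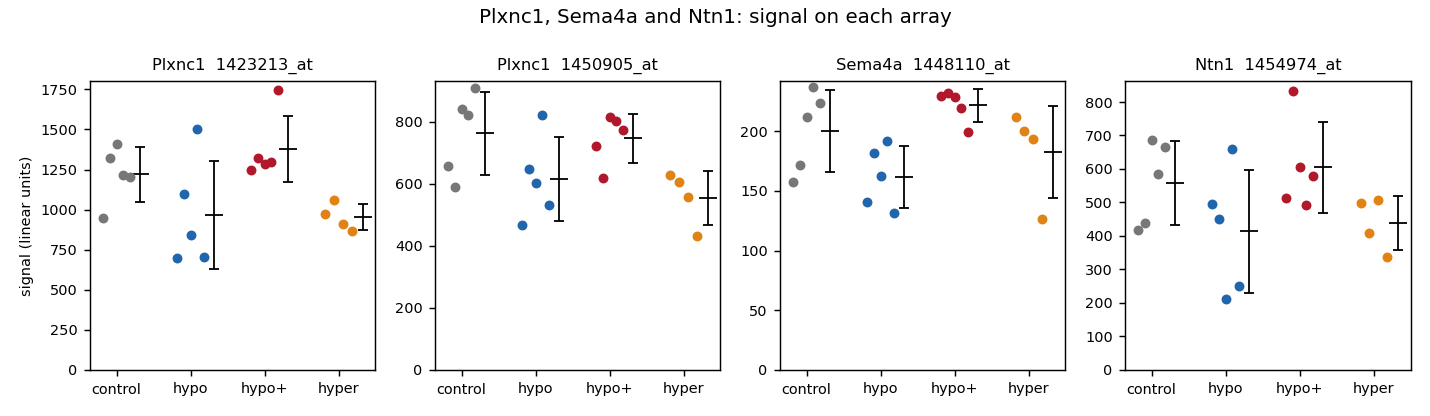
Signal (linear units) on each of the 19 arrays for 2 Plxnc1 probe sets, Sema4a 1448110_at and Ntn1 1454974_at, with 1 point per array and bars for the mean and SD. Hypo lies lower than hypo+ on average in all 4, with overlap for Plxnc1 and Ntn1 and none for Sema4a.

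Slit and Robo genes held no call in any comparison. Robo1, the main Slit receptor of cortical neurons, read 973 ± 334 in control, 1012 ± 224 in hypo, 1253 ± 296 in hypo+ and 1111 ± 330 in hyper at 1427231_at, a log2 difference of 0.40 in hypo+ against control, which did not pass (limma adjusted p = 0.452). Slit2 at 1424659_at had 0.25 in the same comparison, with 633 ± 144 in control and 745 ± 65.1 in hypo+. Slit1 and Slit3 had 0.021 and −0.098. The Robo1 difference was within the spread of its arrays, which ran from 543 to 1615. Robo3 1421565_at read higher on every hypo+ array (21.6 to 27.5) than on every control array (17.8 to 21.3). That probe set was dim, called absent and did not pass.

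With the drugs alone no member passed, and the changes over the 125 probe sets ran from −0.49 to 0.59 with a median of −0.016 (all probe sets −0.012). The groups did not overlap for 1 probe set, the dim Epha6 1421527_at, where control read 37.6, 36.7, 37.0, 29.1 and 33.2 and hypo 27.5, 26.8, 25.5, 23.8 and 26.4; it was called absent and its change of −0.20 did not pass (limma adjusted p = 0.356). Hypo lay below control on every array in 0.895% of all probe sets, and above in 0.384% (0 members). With the high dose, the median was 0.031 (all probe sets 0.013), and 5 probe sets lay above control on every array and 2 below, where 1.68% and 1.59% of all probe sets did. The 5 were Efna2 1417521_at, Epha3 1425575_at, Epha5 1435286_at, Sema5a 1437422_at and Epha7 1451991_at, and the 2 were Plxna1 1428623_at and Plxnc1 1443434_s_at. Epha7, an EphA receptor with a graded pattern across the cortex, read 672, 755, 641 and 657 in hyper and 561, 208, 348, 511 and 582 in control, a change of 0.67 ± 0.21 that did not pass (0.239).

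The 2 hormone responses were compared as the change from hypo to hypo+ minus the change from control to hyper. Their doses differed: 25 µg T4 plus 2.5 µg T3 in hypo+ and 100 µg plus 10 µg in hyper. An effect of the drugs on the hormone response therefore cannot be told apart here from an effect of dose. The lowest adjusted p of a member was that of Epha3 1455426_at, with a difference of −0.50 ± 0.08 (limma adjusted p = 0.0517), just outside the threshold. It passed without control replicate 4 (0.0441), hypo replicate 4 (0.0428) or hypo replicate 5 (0.0320), with array weights (0.0260) and with a pseudocount of 100 (0.0172), and it was −0.48 (0.30) without the arrays with Y-linked signal. The other Epha3 probe sets gave −0.55, −0.55 and −0.65. The −0.65 is that of 1425575_at, whose means were alike in hypo (1085) and hypo+ (1091) and differed between control (744) and hyper (1106.5). The 24 EphA receptor probe sets had a median of −0.28, against −0.012 over all probe sets and −0.034 over all called present. By the brightest probe set of each EphA gene the median was −0.027, with 4 of 9 positive. Plxnc1 1423213_at had 0.88 ± 0.24 (0.514), and Ntn1 1454974_at had 0.92.

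Members varied between arrays of a group by a median SD of 0.20 on the log2 scale over the 110 called present, against 0.19 over all probe sets called present. Of the 36 genes with several probe sets, 13 had all their changes in 1 direction in hypo+ against control and 23 did not. By the brightest probe set of each gene, 2 of 58 genes fell in hypo+ against control (Epha3 and Sema6d), 2 against hypo (Epha3 and Efna3) and 1 against hyper (Epha3), and no gene rose. Over all probe sets, not only the brightest of each gene, 1.9%, 1.13% and 0.0333% fell in these comparisons. In the comparisons with control and hypo 1.21% and 2.03% of all probe sets rose. The authors' deposited table, which used permutation p-values, called 12 member probe sets in hypo+ against control (4 higher and 8 lower; 4.27% of all probe sets), 7 in hypo+ against hypo (1 higher and 6 lower; 4.84% of all) and 2 in hypo+ against hyper (0.109% of all), and these held all 8, 6 and 2 of the calls above. Comparisons of hypo+ share its 5 arrays, so their calls are not independent of each other.

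Of 64 other genes of axon guidance signalling (neuropilins, adaptors, collapsin response mediators and the like), 63 were measured by a probe set. Dscam, a netrin receptor and adhesion molecule, fell by 0.35 in hypo+ against control (limma adjusted p = 0.0378), 348 ± 37.4 against 268 ± 32.1, and no other gene of the list passed in any of the 6 comparisons. The median of the list was −0.015 in hypo+ against control.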

How the data were processed

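The authors hybridised RNA of single fetuses to Affymetrix arrays, 1 per fetus; the labels name a rat array, but the probe sets and symbols deposited are those of mouse. The deposited values are linear intensity signals per probe set, summarised and normalized by the authors. The submitters' processing notes name RMA and MAS5 without versions or roles. The authors also deposited a table of signed fold change (a score never between −1 and 1), present calls, and raw and adjusted permutation p-values, per the file headers.

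The 64 control probe sets were left out. Values were analysed as log2(value + 32), computed here from the deposited intensity, in limma 3.58.1 (R 4.3.3; lmFit, eBayes): 1 fit of 4 group means over 19 arrays, 15 residual degrees of freedom, two-sided tests, Benjamini-Hochberg adjustment over 45037 probe sets and a threshold of 0.05 in 6 comparisons. The fit was tested on simulated data. Replicates were grouped by label. A gene was represented by its probe set with the highest mean. Text names members past the threshold, the 3 largest positive and negative t statistics of representing probe sets per comparison, and the brightest and dimmest gene per role; other probe sets of these genes and a few further examples were chosen after their values were seen. Members, marker lists and the list of other guidance genes were chosen with earlier results of these data known. Alternatives changed the pseudocount, normalization, arrays, weights, prior, filter and probe set rule.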

Additional observations from a re-analysis of the deposited data

Results flagged for a closer look

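In each group of 4 or 5 arrays, the highest or lowest array of 27 member probe sets was compared with its neighbours by its gap to the nearest array over the range of the group. Of 108 groups examined, 3 held an array that stood apart, and chance alone gives about 1 in 20 groups. Plxnc1 1423213_at read 1748 on hypo+ replicate 5 against 1249.5 to 1321 on the other 4 hypo+ arrays. Epha5 1435286_at read 1952 on control replicate 4 against 1704 to 1771 on the other control arrays. Epha8 1419341_at, an EphA receptor probe set near the dim end, read 88.4 on hypo+ replicate 3 against 68.8 to 73 on the other hypo+ arrays. None of the 3 probe sets passed the threshold in any comparison.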

How the results depend on the processing

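The 8 calls in hypo+ against control became 4 with a pseudocount of 1, 13 with array medians centred, 13 with array weights, 2 with only the groups compared, 5 with the replicate number as a block, 0 with the mean of the probe sets of a gene, where limma tested fewer features, and 1 with the brightest probe set of a gene. Leaving out 1 array gave 2 to 9, and under 6 without control replicate 1 (5), 3 (4) or 5 (4) or hypo+ replicate 2 (4), 3 (3), 4 (3) or 5 (2). The 6 calls in hypo+ against hypo became 11 under quantile normalization and 11 with medians centred, 0 with the gene mean and 1 with the brightest probe set; leaving out 1 array gave 3 to 11, with 11 without hypo replicate 4 and 3 without hypo replicate 1, 3 or 5 or hypo+ replicate 3, 4 or 5. The 2 calls in hypo+ against hyper became 0 with a pseudocount of 1, medians centred, the gene mean or without both arrays with Y-linked signal, and 1 under quantile normalization, only the groups compared, the replicate block or the brightest probe set. Leaving out 1 array gave 1 to 2, with 1 without control replicate 3 or 5 or any 1 of the hypo+ and hyper arrays. The count of 0 in hyper against control became 1 under quantile normalization and 1 with medians centred, and 0 to 2 with 1 array left out (2 without control replicate 4). The count of 0 in the difference of responses became 1 with a pseudocount of 100 and 1 with array weights, and 0 to 1 with 1 array left out (1 without control replicate 4 or hypo replicate 4 or 5). Hypo against control stayed at 0 in every setting run, with 0 to 0 when 1 array was left out. Without both arrays with Y-linked signal, 7 and 5 probe sets passed in hypo+ against control and against hypo. The cause of these shifts was not tested. Some settings also left fewer features or arrays in the fit. Among the called probe sets only 1455426_at of Epha3 and those of Sema6d and Efna3 are the brightest of their gene. The other calls could therefore not be kept with the brightest probe set. Efna3 was left out of both gene settings because its symbols name a second gene. Deviations of same-numbered arrays had correlations of −0.369 to 0.439 over 27 pairs, 8 of them above 0.1. Of 19 arrays 4 correlated best with an array of their own number. No general pairing by number was seen, but the labels do not tie fetuses to dams, so whether the numbers mark a pairing is not known. Why the replicate block gave other counts was not tested. Sema5a 1437422_at turned from 0.28 to −0.076 in hypo+ against control with the gene mean, the only single value to change sign. Epha3 1425574_at kept its calls against control and against hypo in 30 of 30 settings, as did Epha5 1420557_at against hypo. Those 30 did not include the gene mean or the brightest probe set, which were run only for the brightest probe set of a gene. Epha3 1455426_at kept its own calls against control and against hypo in 31 of 32, losing them with the gene mean (−0.21 and −0.34). Centring moved the median of all probe sets in hyper against control from 0.013 to −0.090. Only the groups compared could not be fitted for the difference of responses. The 15 probe sets called absent lie near background, where signal limits what can be seen.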
